A study of Mus musculus with 3 samples.

Results

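The data described here are the peaks of chromatin precipitated from mouse liver with an antibody against RARα, the retinoic acid receptor alpha. The rule took every peak of the deposited RARα list with a peak score greater than 20 and used no other library. Of 143280 peaks in the list, 32946 (23.0%) passed. The study sequenced 3 libraries, namely RXRα ChIP, RARα ChIP and input chromatin, to clarify what RXRα and RARα do in the liver. All came from liver of male wild type C57BL/6 mice of 3 months, and the labels name no treatment. The RARα antibody was bought from Santa Cruz, and neither the number of livers behind the library nor the reads behind each peak can be read from the list. There is 1 RARα library without a replicate, so all values describe this library, no test between samples exists, and the 95% Wilson intervals given for shares cover counting error only. Peaks often follow one another directly, and peaks and genes are not independent, so these intervals are too narrow as a measure of certainty.

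RARα is a nuclear receptor that binds retinoic acid, the active derivative of vitamin A, and usually pairs with a retinoid X receptor on DNA. The pair recognizes direct repeats of a hexamer related to AGGTCA, and a repeat with a spacing of 5 bases, called DR5, is the classical element of genes that answer to retinoic acid. The liver takes up and stores vitamin A, releases it on its plasma carrier and breaks retinoic acid down with cytochrome P450 enzymes of the CYP26 family, of which Cyp26a1 is the best known target of the receptor.

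The sequences that follow show the 2 sites at Cyp26a1, elements that were more frequent around other summits than in the genome or at TSS, or that lay in the peaks with the highest scores, and further DR5 repeats for comparison. They were read from the NCBI37/mm9 genome, 5′ to 3′ on the strand given, with the motif in capitals. A match of this kind is a description of the letters and not a mapped binding site. The DR5 repeats of Cyp26a1 lie upstream of the gene and over its transcriptional start site (TSS), in peaks with scores of only 24 and 21, and their centres are 2 and 1 bp from the summits. Plekhb1 has the DR5 peak with the highest score, 79, upstream of the gene, and Cbr1 has a DR5 peak with a score of 53 at its TSS. The DR5 repeats of Plekhb1 and Cbr1 lie 38 and 62 bp from the summits.
Cyp26a1 upstream DR5, chr19:37770393-37770421, plus strand: ctgcagGGGTCACAGGCGGGTCAggctaa
Cyp26a1 TSS DR5, chr19:37772260-37772288, minus strand: caaattAGTTCACCCAAAGTTCAtcttta
Plekhb1 DR5, chr7:107811903-107811931, minus strand: gcagccGGTTCACCTAGAGTTCAccaagc
Cbr1 DR5, chr16:93608113-93608141, minus strand: gagagtGGTTCAAGACCGGTTCActggcg

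The next set shows a CTCF-like element of 12 bases, which reads CC, 3 bases of any kind, AG, 2 bases of any kind and GGC, and resembles the recognition sequence of the insulator protein CTCF. It was the most frequent of the 21 searched elements in intergenic, intronic and 3′ end peaks. The first site lies in an intergenic peak nearest to Glrx with a score of 144, and the other sites lie in intronic peaks nearest to Trpm8 and Crebbp, with scores of 193 and 147.
Glrx CTCF-like, chr13:75935479-75935508, minus strand: ccacactatCCAGCAGATGGCgctgcacgc
Trpm8 CTCF-like, chr1:90184329-90184358, minus strand: ccatggaggCCACAAGAGGGCacaagaact
Crebbp CTCF-like, chr16:4316266-4316295, plus strand: tagcttgctCCTCCAGAGGGCacactgaac

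The last set shows elements of promoters from peaks at the 5′ ends of genes. Kdelr2, which encodes a receptor for retrieving proteins to the endoplasmic reticulum, shows the YY1 element AAGATGGCG 1 bp from a summit with a score of 112. Polr2a, the gene of the largest subunit of RNA polymerase II, carries an ETS element, CCGGAAG, in a peak with a score of 278. Junb, a subunit of the transcription factor AP-1, and Cebpa, a transcription factor that maintains hepatocyte identity, carry a TATA box, TATAAA, in peaks with scores of 308 and 268.
Kdelr2 YY1, chr5:144165532-144165560, minus strand: gaagcggcgaAAGATGGCGggagcgggcg
Polr2a ETS, chr11:69572071-69572099, minus strand: gaaggtggctcCCGGAAGggggagagaca
Junb TATA box, chr8:87502631-87502658, minus strand: gacaaattcagTATAAAagcttggggct
Cebpa TATA box, chr7:35904271-35904298, plus strand: gcccgaccctcTATAAAagcggtccccg

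The peak score is the number the peak caller gave each peak, and its scale is not defined in the list. The selected scores lay between 21 and 382. Their median was 33, and the middle 50% were between 25 and 48. At the threshold, 1858 peaks had a score of 21 and 2546 peaks just outside it had a score of 20. The selected peaks held 53.6% of the summed score of the list and covered 0.671% of the sequenced genome. A false discovery rate of 0% was listed for 62.4% of them, compared to 17.4% of the peaks with lower scores, and a rate above 1% for 0.905% and 23.2%, respectively. The narrowest peak measured 81 bp and the widest 3251 bp, and the median width was 491 bp. The summit lay within 100 bp of the centre in 81.1% of the peaks. Wider peaks had higher scores, with a median of 25 up to 300 bp, 35 over 500 and up to 700 bp, and 61 above 1000 bp. The Spearman correlation of score and width across peaks was 0.341, which is a description, since both come from the same reads.

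Peaks were assigned by their summit to a part of a protein-coding gene, in this order: 5′ end, which is within 1 kb of the TSS, 3′ end, which is within 1 kb of the gene end, coding exon, UTR, other exon, intron and intergenic. Coding and other exons were counted together as exon. Gene 5′ ends held 11208 peaks, which was 34.0% (33.5 to 34.5%), on 1.65% of the genome, a density 20.6 times that of the genome. Introns held 9951 peaks (30.2%) and intergenic sequence 9178 peaks (27.9%), at 0.863 and 0.466 times the genome density. There were 1128 peaks at 3′ ends (3.42%), 789 in exons (2.39%) and 692 in UTRs (2.10%), at 2.29, 1.67 and 3.55 times the genome density.

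**Figure D1:**
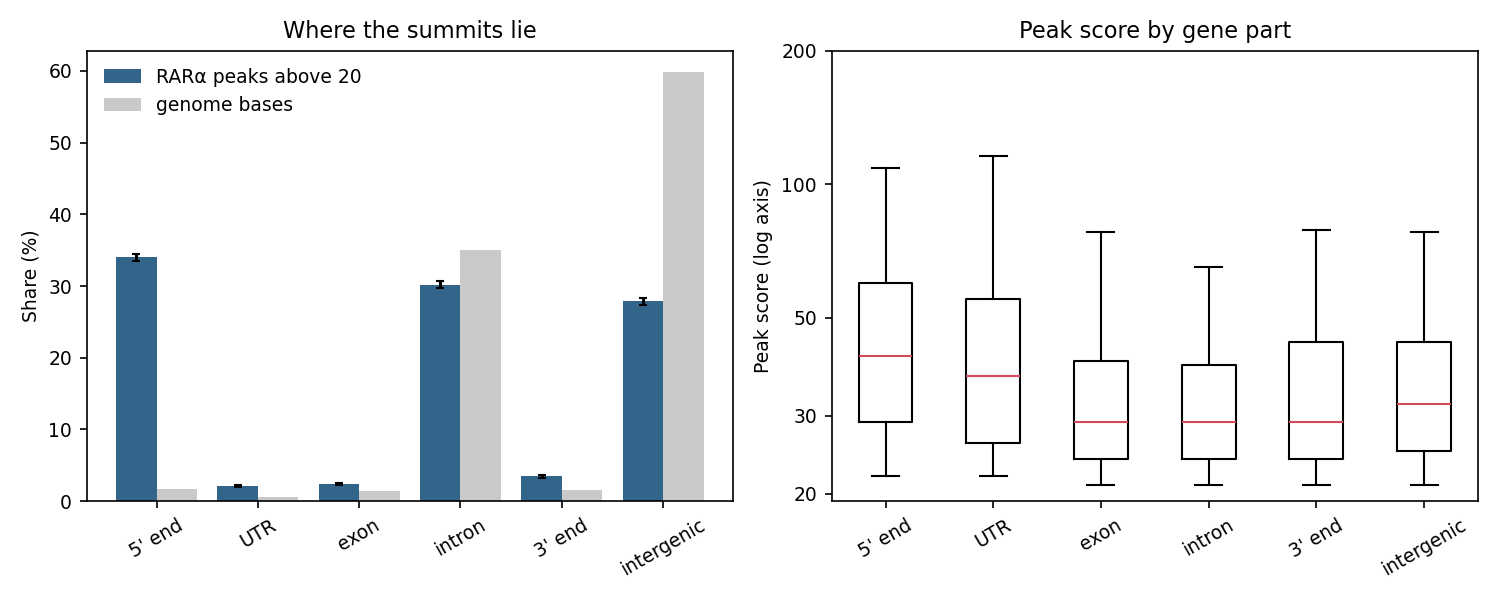
The left panel plots the share of RARα peaks above 20 (blue, with 95% Wilson intervals) and of genome bases (grey) in each gene part, in percent. The right panel plots the peak score on a log axis, where the red line is the median, the box holds the middle 50% and the whiskers show the 5th and 95th percentiles. The 5′ end holds 34.0% of the peaks on 1.65% of the genome and has the highest median score, 41.

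Scores also differed by gene part. The median was 41 at 5′ ends and 37 in UTRs, and 29 in exons, introns and 3′ ends and 32 between genes. Peaks at 5′ ends held 41.2% of the summed score. Of the 5′ end peaks, 6.46% had a score above 100, compared to 1.0% of the intronic and 1.69% of the intergenic peaks. The share of 5′ ends rose with the score class, from 20.9% of the peaks with scores of 21 to 25 to 35.1% at 31 to 50, 51.7% at 51 to 100 and 74.5% over 150 and up to 200, and it was 72.1% of the 68 peaks above 200. Below the threshold it was 12.2% at 5 to 10 and 13.9% at 11 to 20. Introns went the other way, with 39.4% of the peaks at 21 to 25 and 7.0% over 150 and up to 200. A median width of 550 bp at 5′ ends compared to 470 bp in introns and 460 bp between genes.

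Within the 5′ ends the summits gathered just downstream of the TSS. The 100 bp that begin at the TSS held 3684 summits, compared to 1541 in the 100 bp before it and 1142 in the 100 bp after that bin. The same bin had the highest median score, 48, and 384 peaks above 100. Within 1 kb of the TSS, 6864 summits lay downstream and 4324 upstream, so 61.2% were downstream, and their median position was +37 bp. At larger distances, 12.1% of all peaks were 1 to 5 kb, 8.81% 5 to 10 kb and 28.6% 10 to 50 kb from the nearest TSS, and 7.18% were farther than 100 kb, with a median score of 28.

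**Figure D2:**
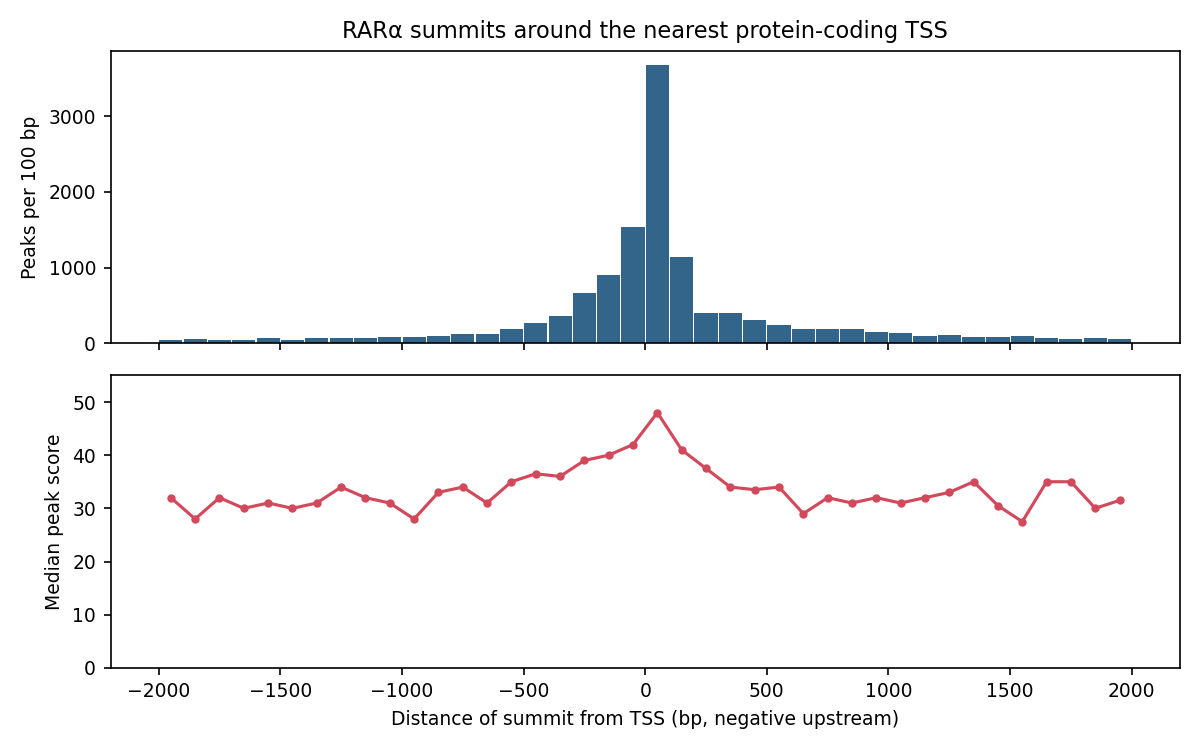
The upper panel plots the number of RARα summits per 100 bp against the distance of the summit from the nearest protein-coding TSS in bp, where negative values are upstream, and the lower panel the median peak score in the same bins. Both are highest in the bin from the TSS to 100 bp downstream, with 3684 peaks and a median score of 48.

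The peaks with the highest scores at 5′ ends were those of Junb (308, chromosome 8, 87502341 to 87503101), Polr2a (278) and Hspa8 (276), which encodes a constitutively expressed heat shock chaperone. In UTRs the highest scores were at Errfi1 (276), whose product is a feedback inhibitor of the EGF receptor, Brd2 (257), a bromodomain protein that binds acetylated histones, and Sepp1 (255), which encodes selenoprotein P, the selenium carrier secreted by the liver. Exonic scores were lower and were highest at Alb (168), the albumin gene, in a peak whose nearest TSS is that of Tubd1 (150) but which lies in the exon of another gene, and at Errfi1 (143). The leading intronic peaks were at Ing1 (277), whose product reads histone methylation, at Alb (242) and at Eef1a1 (202), the gene of a translation elongation factor. At 3′ ends, Gm11175 (272) and Serpina3k (215), a serine protease inhibitor of plasma, had the highest scores. The next peak (174) lay 2906 bp upstream of its nearest TSS, that of Mybpc3, at the 3′ end of another gene.

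The highest scores of all were intergenic. Peaks with scores of 382, 358 and 341 followed one another on chromosome 17, from 39979841 to 39983401, over 360 kb from the nearest protein-coding TSS, that of Pgk2. Another peak with a score of 333 lay beside them from 39984801 to 39985890, at a gene that the annotation calls the pseudogene AY036118. Non-coding genes were near other intergenic peaks with high scores. A peak with a score of 292 on chromosome 19, from 5802431 to 5803030, lay at Malat1, and a row of 34 peaks from 5821311 to 5846241, with a highest score of 251, lay over Neat1. Both are long nuclear RNAs that are abundant in many tissues. Whether these peaks are also present in input chromatin was not tested here. Away from the 5′ ends of protein-coding genes, 175 peaks lay within 1 kb of the 5′ end of a long intergenic non-coding RNA, which involved 141 (18.5%) of 761 such genes, and 52 peaks lay at small nucleolar RNA genes, with a median score of 52.

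Sequence around the summits differed between gene parts, as measured in windows that reach 100 bp to either side of the summit, for 32945 peaks, with both strands searched for 21 elements. Windows counted as CpG-rich with at least 50% G and C and an observed to expected CpG ratio of at least 0.6. At 5′ ends, 76.7% of the peak windows were CpG-rich, compared to 48.4% of the windows on all protein-coding TSS. A peak within 1 kb was present at 63.3% (62.4 to 64.2%) of the 10819 genes with a CpG-rich TSS and at 13.6% (13 to 14.3%) of the 11545 other genes. In introns and between genes, only 5.70% and 9.07% of the peak windows were CpG-rich, compared to 0.501% and 0.535% of genome windows of the same parts.

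The CTCF-like element was present in 33.1% of the intergenic, 21.9% of the intronic and 22.3% of the 3′ end windows, compared to 1.78%, 2.30% and 3.26% of genome windows of the same parts. At 5′ ends its share was 11.1%, compared to 7.28% of all TSS windows. It was centred on the summits, since 50.9% of its 7323 matches lay within 25 bp of the summit, where 26.3% of the possible positions lie. Away from 5′ ends, peaks with the element had a median score of 34 and those without it 29. Of the promoter elements, the YY1 element was in 3.12% of the 5′ end windows and 1.94% of all TSS windows, and 45.0% of its matches in all peaks lay within 25 bp of the summit. The ETS element was in 13.9% compared to 9.39%, and the GC box, GGGCGG, in 52.3% compared to 40.0%. The CCAAT element, GCCAAT, and the TATA box were less frequent in 5′ end peaks than in all TSS windows, at 10.1% compared to 12% and at 3.90% compared to 8.21%. The TSS windows are centred on the TSS, whereas only 5241 of the 11208 summits at 5′ ends lay within 100 bp of it. The part of this placement in the differences between 5′ end peaks and TSS windows was not tested. Over all gene parts together, the TATA box was present in 12.4% of the 1076 peaks with scores above 100, of which 724 were at 5′ ends. The corresponding shares were 6.74% of all selected peaks and 19.3% of genome windows.

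Direct repeats of the nuclear receptor hexamer were rare. A DR5 was present in 28 peaks (0.0850%, 0.0588 to 0.123%), compared to 0.0654% of genome windows, with a median score of 26.5 in these peaks, and in 0 of the 1076 windows with scores above 100. A DR1, a spacing of 1 base, was present in 106 peaks (0.322%, 0.266 to 0.389%), compared to 0.114% of genome windows. The DR1 matches were not centred, as 22.0% of them lay within 25 bp of the summit, where 27.0% of the positions lie. The DR2, a spacing of 2 bases, was in 0.112% of the peaks and 0.196% of genome windows. Between genes these shares were 0.174% and 0.199%, and in introns 0.141% and 0.202%. At 5′ ends 1 peak had a DR2. The hexamer AGGTCA alone, in this exact form, was in 13.7% of the peaks and 11.1% of genome windows, and the share was 17.4% in intronic peaks. The direct repeats also matched related hexamers, such as GGGTCA and AGTTCA at Cyp26a1, so their shares and that of AGGTCA are not for the same letters. Elements of liver transcription factors differed less from the genome than the CTCF-like element, with FOXA, TGTTTAC, in 4.49% of the intronic peaks compared to 3.07%, and C/EBP, TTGCNNAA, in 11.3% of the intergenic peaks compared to 9.80%. The element of HNF1, also a liver factor, was rarer but in relative terms further above the genome in introns and between genes. It was in 11 intronic peaks (0.111%, 0.0617 to 0.198%), compared to 0.0181% of intronic genome windows. Between genes it was in 7 peaks (0.0763%, 0.0370 to 0.157%), compared to 0.0187%. UTR and exonic peaks had 0 matches, so these HNF1 shares rest on few peaks. These searches used fixed patterns of letters, so the absence of a match says nothing of weaker forms of an element.

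The peaks were spread over 21 chromosomes. On the autosomes there were 13.6 peaks per Mb, from 9.60 on chromosome 14 to 21.7 on chromosome 11, and the density followed that of genes, with a Spearman correlation of 0.840 and a Pearson correlation of 0.811 over 19 autosomes, which share 1 library. Chromosome X had 345 peaks, or 2.13 per Mb, which was 0.156 (0.141 to 0.174) of the autosomal density. Its density of protein-coding genes, 5.75 per Mb, was just below the lowest autosome, with 5.90. Per gene there were 0.370 peaks on chromosome X and 1.04 to 1.99 on the autosomes. A 5′ end peak was present at 15.7% of the X-linked genes and at 29.9 to 44.9% of the genes of each autosome. Scores were lower there too. The median score at 5′ ends was 30 on chromosome X and 41 on the autosomes, the median elsewhere was 29 and 30, and 0.870% and 3.29% of the peaks had a score above 100. The mice were male and carry a single chromosome X for each pair of autosomes, and the part of this in the lower values was not tested. Chromosome Y had 5 peaks.

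**Figure D3:**
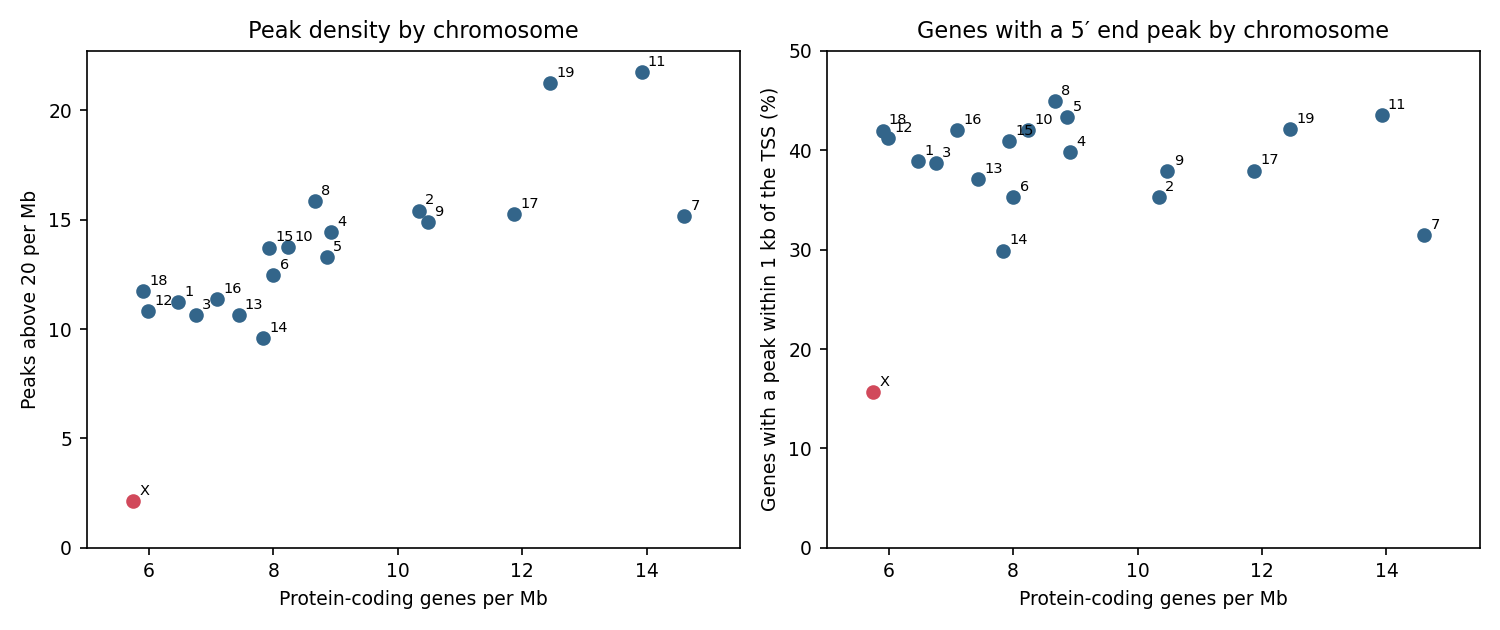
Each point is a chromosome, plotted against its protein-coding genes per Mb, with peaks above 20 per Mb on the left and the share of genes with a peak within 1 kb of the TSS, in percent, on the right. The autosomes are blue and chromosome X is red, and chromosome Y is left out. Chromosome X lies below every autosome in both panels, at 2.13 peaks per Mb and 15.7% of genes.

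When each peak was assigned to the nearest protein-coding TSS within 10 kb, 18093 peaks (54.9%) were assigned to 10219 of 22367 genes, which is the background share of 45.7% for the gene lists described here. Within 1 kb the corresponding count was 8427 genes, or 37.7%. A single peak was assigned to 5989 (58.6%) of the genes with a peak, 5 or more to 358 genes and 10 or more to 67 genes, or 0.3% of all genes. The summed score per gene with a peak had a median of 58 and a maximum of 1649, and the top 1% of these genes held 7.72% of the total. Genes with a peak were longer than those without, with a median length of 20538 and 10578 bp.

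The 12 genes with the highest summed scores were mostly genes of hepatocyte products. Alb (ENSMUSG00000029368.9, chromosome 5, 90889915 to 90905629, plus strand) came first with a summed score of 1649 from 11 peaks. Plasma proteins further included Serpina3k with 1238 from 8 peaks and the fibrinogen chains, with 1078 at Fgb, 1029 at Fgg and 974 at Fga, each from 16 peaks. Among the enzymes, Alas1, the rate-limiting enzyme of heme synthesis, had a summed score of 1232 from 14 peaks and Pck1, a key enzyme of gluconeogenesis, had 1174 from 13. Ces3b, a carboxylesterase, followed with 1047 from 16 peaks. Acsl1, which activates long-chain fatty acids, had 1031 from 18, and Cyp2e1, a cytochrome P450 that oxidizes ethanol, had 1024 from 12. The remaining genes were Errfi1, with 1414 from 15 peaks, and Bcl6, a transcriptional repressor, with 1246 from 27.

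By the number of peaks the order changed. Gm17664 led with 28 peaks, but it is a gene of only 217 bp annotated inside Egfr, the EGF receptor gene, and takes peaks of that region because its TSS is nearest. Bcl6 (27) and Sdc4 (24), the gene of the cell surface proteoglycan syndecan-4, came next. Ahsg, which encodes the plasma protein fetuin-A, and Pzp, a broad protease inhibitor of plasma, had 22 peaks each. The phosphatidate phosphatase gene Lpin1 and the tyrosine aminotransferase gene Tat had 21 each. There were 19 peaks each at Cps1, which catalyzes the first step of the urea cycle, and Hpx, which encodes the heme carrier hemopexin. Acsl1 and Nudt7, whose product is a peroxisomal enzyme that cleaves coenzyme A, had 18, and Apob, the structural protein of very low density lipoprotein, had 17, as did Ces3a, Cyp7b1, Egfr, Gsta3 and Onecut1.

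In several of these genes the peaks covered nearly the whole annotated gene. Tat, with a length of 9367 bp, carried 21 peaks with a highest score of 213 at the TSS and scores from 21 to 60 in the other peaks, and 98.1% of its length was covered. Pck1 carried its highest score, 157, at the TSS, scores of 132, 125 and 120 in exonic peaks and 125 in the last peak beyond its 3′ end, and 98.7% of its length was covered. Alb was covered over 95.1% of its length, with 221 at the TSS and 242 near the 3′ end. Errfi1 differed in that the peaks at its 5′ end had scores of at most 51, whereas the highest score, 276, was 1157 bp downstream of the TSS.

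**Figure D4:**
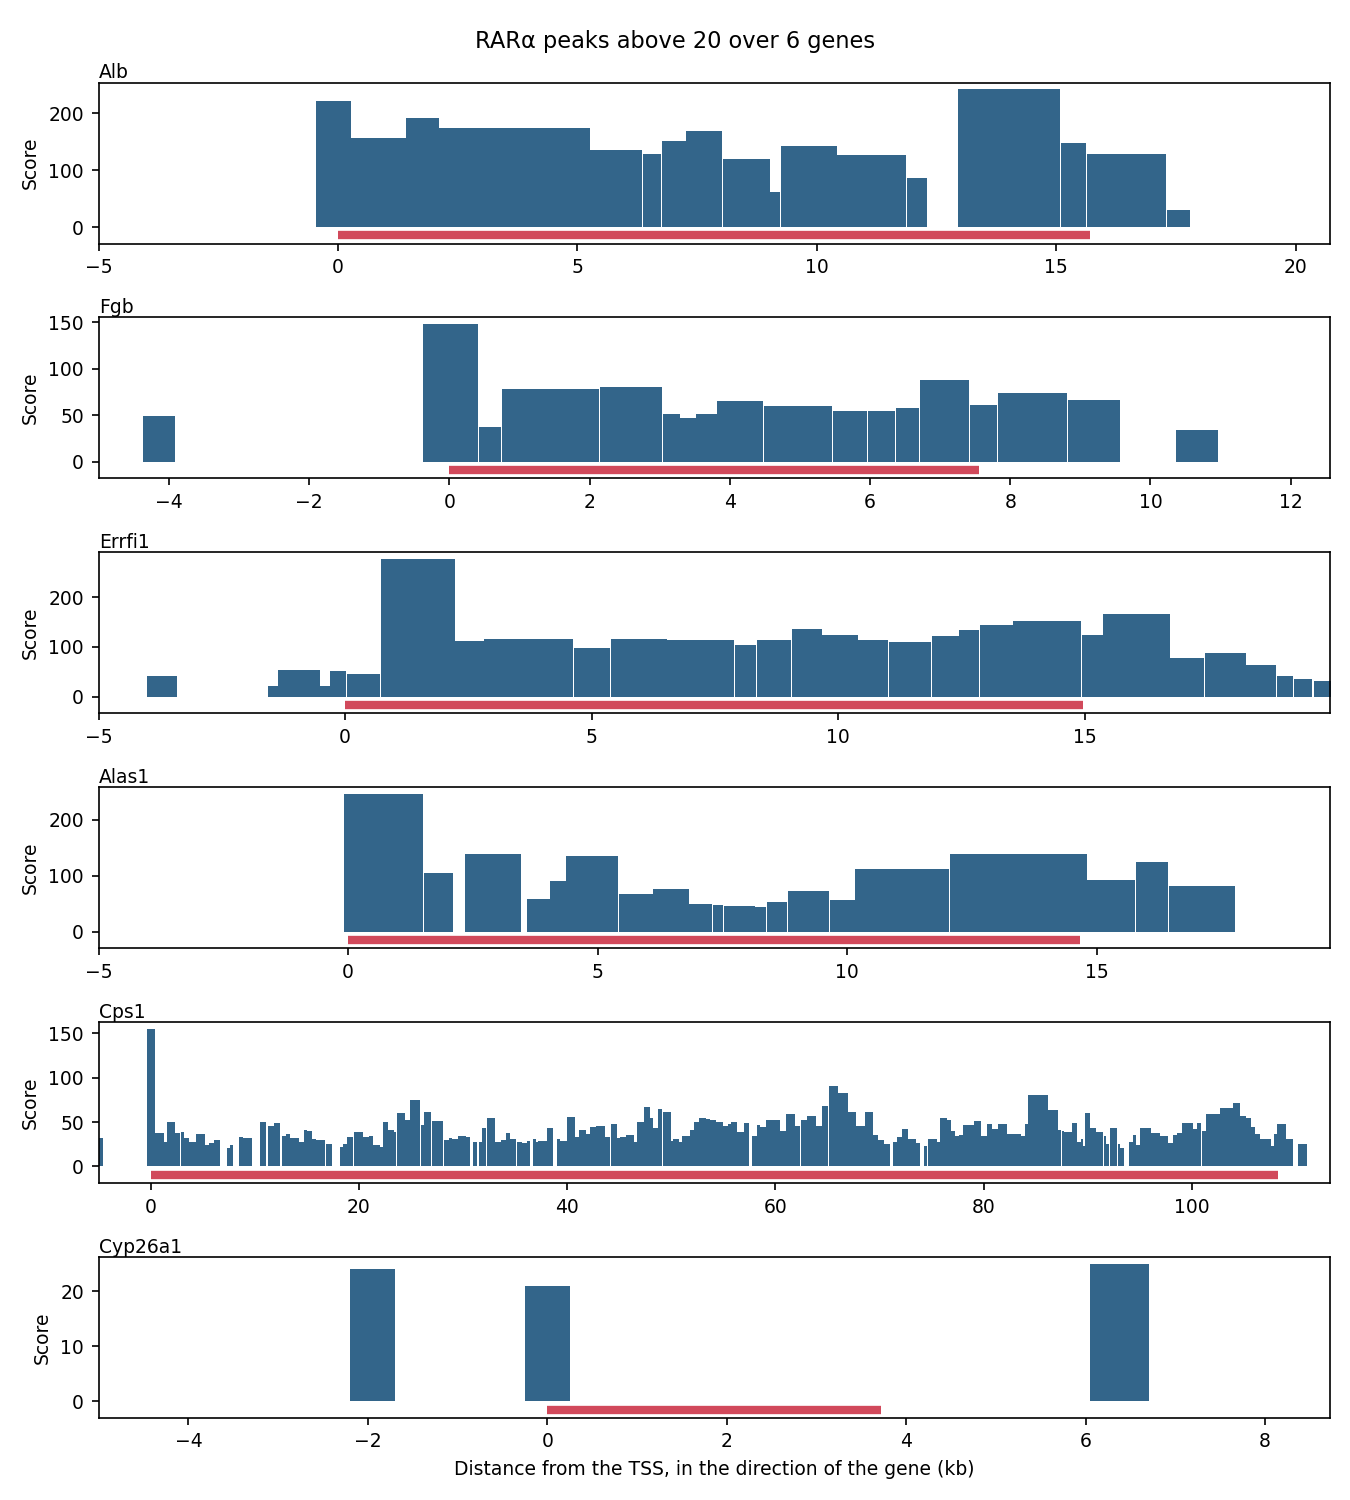
Each panel plots the RARα peaks above 20 of 1 gene as blocks, with the peak score on the vertical axis and the distance from the TSS in kb, in the direction of the gene, on the horizontal axis, and the red bar marks the gene. In Alb, Fgb, Errfi1, Alas1 and Cps1 the blocks follow one another over most of the gene and a little beyond, whereas Cyp26a1 has 3 separate peaks with scores of 21 to 25.

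Counted over the whole gene with 1 kb on either side, Cps1 (ENSMUSG00000025991.8, chromosome 1, 67169600 to 67277833, plus strand) carried 187 peaks with a summed score of 7667, which covered 93.2% of its 108234 bp. Ttc39c carried 147 peaks, Egfr 113 and Acsl1 111. Gm20388 carried 156, but it is annotated over 4434882 bp across many other genes and 1.82% of it was covered. Ttc39c had 0 peaks within 10 kb of its annotated TSS, and so had Scp2, which encodes a sterol carrier protein and was covered over 52.4% of its length. Assignment to the nearest annotated TSS thus leaves out genes whose peaks lie farther downstream or nearer to another TSS. Of 18968 protein-coding genes of at least 2000 bp, 70 (0.369%) were covered over at least 50% of their length. Of these 70 genes, 63 had a peak within 1 kb of the TSS and 11 were longer than 20 kb.

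Peaks that follow at a distance of at most 10 bp were joined into runs to describe this arrangement. There were 27328 runs, of which 23774 were isolated peaks, and 27.8% of the peaks were in runs of 2 or more. Runs of 6 or more numbered 128. They held 1355 peaks with a median length of 4471 bp, and the highest score of the run was intronic in 66 of them and at a 5′ end in 27. The run with the most peaks, 35 over 19231 bp, was in Cps1. The row over Neat1 came second, with 34 peaks, a length of 24931 bp and a summed score of 3110, and Errfi1 next, with 28 peaks and 2865. The gap between consecutive peaks was in nearly all such cases exactly 10 bp, so the number of peaks in a gene of this kind depends on how the peak caller divided an enriched stretch, and the summed score grows with it.

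Liver functions and more general ones were described with 19 lists of genes, which include immediate early, heat shock, proteasome and spliceosome lists. Each list is given by the number of members with a peak within 10 kb, beside 45.9% over all 22225 gene symbols. In 18 lists the interval lay above that share. The lists were chosen with earlier results of these data known, so these shares are a description only. All measured members had a peak for the urea cycle and amino acid catabolism (33 of 33), cholesterol synthesis and uptake (25 of 25) and fatty acid oxidation and ketogenesis (25 of 25). The lists together held 475 symbols, or 2.14% of all, and 33 (49.3%) of the 67 genes with 10 or more peaks. They also held 33 (47.1%) of the 70 genes that were covered over at least 50% of their length. Genes that many tissues use had such shares too, with 29 of 31 proteasome subunits and 28 of 32 spliceosome genes. The median summed score of a list counts members without a peak as 0, and over all symbols it was 0. The proteasome and spliceosome medians were 58 and 72.5, within the range of the liver lists. That range went from 41.5 for retinoid metabolism, 48 for drug metabolism, 62 for bile acids and 73 for fatty acid oxidation to 175 for the urea cycle and amino acid list. Heat shock and chaperone genes had 140, and immediate early and feedback genes 222.

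**Figure D5:**
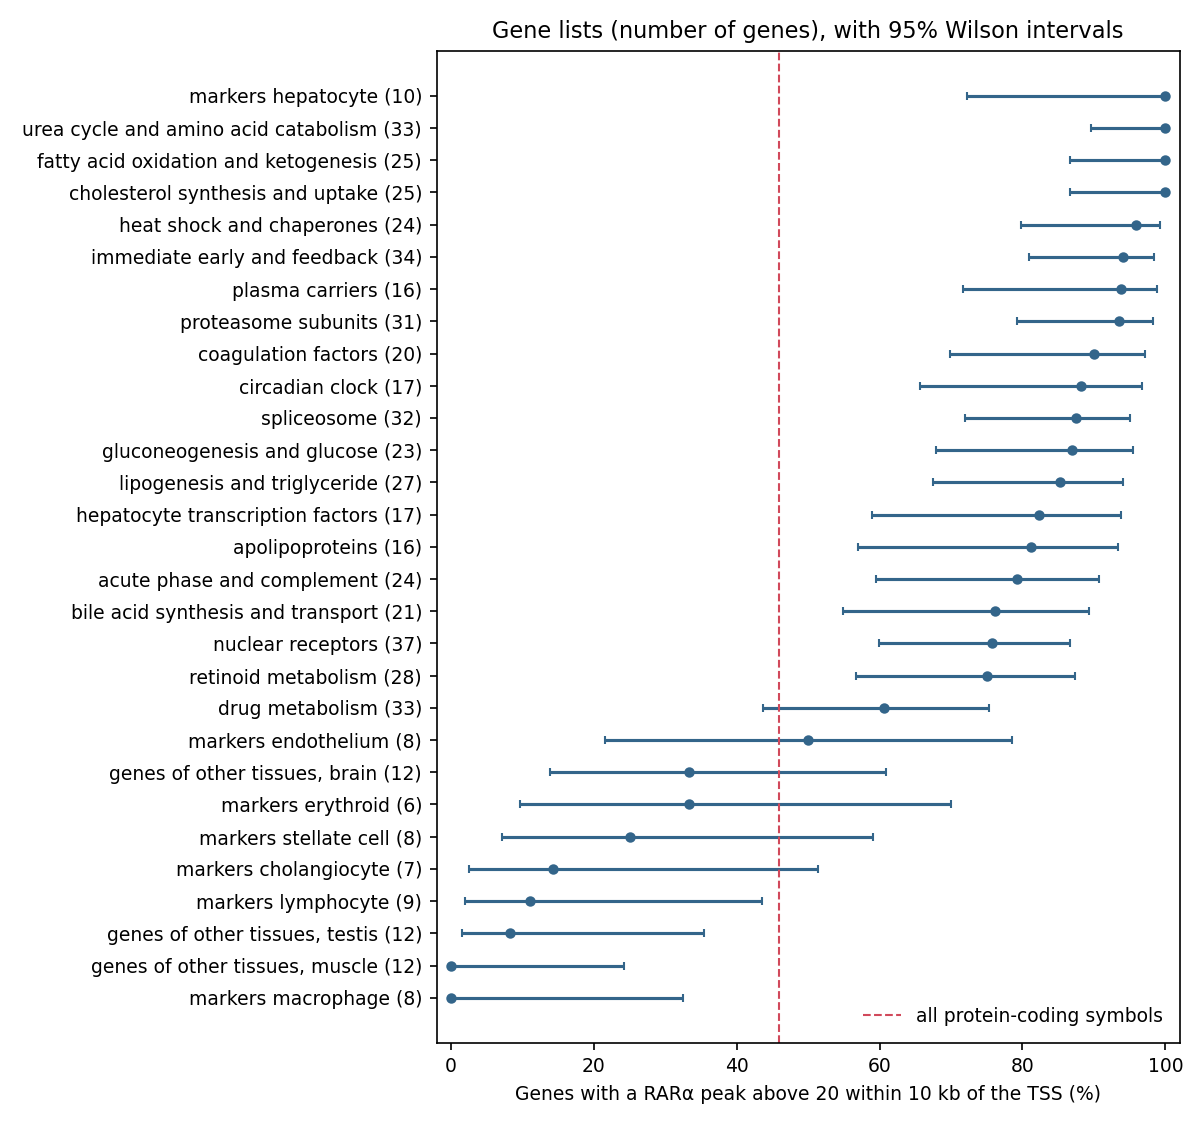
Each point is the share of a list's genes with a RARα peak above 20 within 10 kb of the TSS, in percent, with its 95% Wilson interval and the number of genes in brackets, and the dashed line is the share over all gene symbols, 45.9%. Lists of liver functions lie to the right of the line, and macrophage and muscle genes are at 0.

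For amino acids and glucose, Tat, Cps1, Ahcy, which hydrolyzes S-adenosylhomocysteine, and Tdo2, which opens the ring of tryptophan, led with summed scores of 882, 731, 629 and 449. In gluconeogenesis and glucose metabolism 20 of 23 genes had a peak. Pck1 led with 1174, and Slc37a4, the glucose 6-phosphate transporter, and Foxo1, a transcription factor inhibited by insulin, had 371 and 346. Pck2 and Ppargc1a were among the genes with none within 10 kb, although Ppargc1a carried 3 peaks in the gene.

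For lipids, Insig1, the sterol sensor that retains SREBP, led the cholesterol list with a summed score of 464, and Idi1 and Sc5d, enzymes of sterol synthesis, had 204 and 197. In fatty acid oxidation, Acaa2, a mitochondrial thiolase, had 340 and Cpt1a, which controls fatty acid entry into mitochondria, had 250. In lipogenesis 23 of 27 genes had a peak, led by Lpin1 (762), the desaturases Fads1 (273) and Fads2 (257) and the triglyceride synthase Dgat2 (240). Acaca, Acacb, Me1 and Scd1 had none within 10 kb. Of 16 apolipoprotein and lipase genes 13 had a peak, with 739 at Apob, 629 at Apoa1, 336 at Apoe and 315 at Apoc1, and Apoh, Apom and Lipc had none within 10 kb. In bile acid synthesis and transport the count was 16 of 21, led by Cyp7b1 (589), an oxysterol hydroxylase, Abcc2 (304), the canalicular conjugate exporter, Slc27a5 (228) and Cyp27a1 (195), and Cyp39a1, Hsd3b7, Akr1d1, Scp2 and Abcc3 had none within 10 kb, although Scp2 carried many in its body.

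For plasma proteins, 15 of 16 carriers had a peak, led by Alb, Ahsg (958), Rbp4 (611) and Trf (363), the transferrin gene. The exception within 10 kb was Afp, the fetal counterpart of albumin. Of 20 coagulation genes 18 had a peak, and Plg, the plasminogen gene, came after the fibrinogen chains with 320, whereas F9 and Klkb1 had none within 10 kb. Of 24 acute phase and complement genes 19 had one, led by Hpx (719), C3 (439), Hp (371) and C6 (341). Saa1, Saa2, Apcs, Hamp and Lbp had none within 10 kb. Saa1 and Saa2 are near-identical copies, and the study kept uniquely mapped reads, and the part of this filter in the lack of peaks was not tested.

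Drug metabolism was the list whose interval included the share of all genes, with 20 of 33 (60.6%, 43.7 to 75.3%). It held both extremes, with 1024 at Cyp2e1, 553 at the glutathione transferase gene Gsta3, 466 at Cyp2c70 and 279 at Gstp1, and 13 genes without a peak within 10 kb. These are all Cyp genes, many with similar neighbours, and the part of unique mapping in this was not tested.

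Transcription factors and regulators of rapid response formed another group. Of 17 hepatocyte transcription factors 14 had a peak within 10 kb, led by Onecut1 (785), Cebpa (657), Cebpb (407) and Klf15 (355). Hnf4a and Gata4 were among those with none there, but Hnf4a carried 25 peaks in its body. Among immediate early and feedback genes 32 of 34 had one and the median summed score was 222, with 1414 at Errfi1, 558 at Zfp36, which destabilizes inflammatory mRNA, and 479 each at Gadd45g and Klf9. Fosl1 and Egr3 had none within 10 kb. Heat shock and chaperone genes had one in 23 of 24 cases, led by Hspa8 (631), Hspa5 (534), Hsp90ab1 (289) and Calr (271), and Hspa1a, which has a near-identical neighbour, had none within 10 kb. Of 17 clock genes 15 had one, led by the output regulators Dbp (448), Nr1d1 (447) and Tef (337) and by Per1 (303), and Npas2 and Cry1 had none within 10 kb. The proteasome and spliceosome lists were led by Psmd13 (169), Psmd1 (168), Psma1 (141) and Psmb6 (121) and by Srsf2 (249), Srsf7 (244), Srsf5 (236) and Sf3b1 (167). Psma6 and Psmb5 in the former and Sf3a2, Snrpd1, Snrpd3 and Prpf31 in the latter had none within 10 kb.

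For the receptor's own pathway, the counts were as follows. In retinoid metabolism 21 of 28 genes (75%, 56.6 to 87.3%) had a peak, with a median summed score of 41.5. Rbp4, the plasma carrier of retinol, and Ttr, transthyretin, which binds it, led with 611 and 313. The dehydrogenases Adh7 and Rdh7, which oxidize retinol, followed with 257 and 231. Cyp26a1 (chromosome 19) had 3 peaks, with scores of 24 at -1893 bp, 21 at -23 bp and 25 at 6327 bp from the TSS, near the lowest score that was kept. Of 37 nuclear receptor genes 28 had a peak within 10 kb and 34 had one there or in the gene body. Over all 22225 symbols these counts were 10205 and 12349. The receptor genes had a median length of 46502 bp, compared to 15473 bp over all symbols. Rxra, the partner of the receptor, led with a summed score of 456 from 12 peaks, followed by Nr1d1 (447), Nr3c2 (237), the mineralocorticoid receptor gene, and Nr2f6 (198). Rara itself had 3 intronic peaks with scores of 52, 40 and 26 at 5513, 8623 and 9683 bp from its TSS, and none within 1 kb. Rarg had 1 intronic peak with a score of 21 at 9548 bp, and Rarb had 0 within 10 kb and 2 in its body.

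The cell types of the liver were compared by their marker genes. All 10 hepatocyte markers had a peak, with a median of 12.5 peaks and a median summed score of 810.5 per gene, led by Alb, Pck1, Fgb and Cyp2e1. Of these markers 7 are among the genes with 10 or more peaks, and the lists were chosen with earlier results of these data known. Their difference from other markers is thus a description only. Of the markers of other cells, 0 of 8 macrophage, 2 of 8 stellate cell, 4 of 8 endothelial, 1 of 7 cholangiocyte, 1 of 9 lymphocyte and 2 of 6 erythroid genes had one, beside 45.9% over all symbols. Summed scores there stayed between 22 at Stab2, a scavenger receptor of sinusoidal endothelium, and 130 at Sox9, a cholangiocyte transcription factor, with 48 at Clec4g, 45 each at Col1a1 and Pecam1, 41 at Klf1, 32 at Kdr, 31 at Slc4a1, 26 at Cd4 and 23 at Lrat. Of genes of other tissues, 4 of 12 brain, 0 of 12 muscle and 1 of 12 testis genes had a peak, with summed scores of at most 37, namely 37 at Mbp, 32 at Dazl, 27 at Gfap, 26 at Slc17a7 and 21 at Gad1. Few peaks were assigned to some large gene families, with 20 of 1113 Olfr genes (1.80%), 1 of 327 Vmn genes, 7 of 100 Krt genes and 2 of 41 Defb genes, and 0 of the Olfr genes had a peak within 1 kb. The marker shares depended on the score threshold. With scores above 10 they were 37.5% for macrophage, 62.5% for stellate cell and 75% for endothelial genes. For cholangiocyte, lymphocyte and erythroid genes they were 42.9%, 22.2% and 66.7%, beside 58.3% over all symbols. With scores above 50 they were 14.3% for cholangiocyte genes, 0 for the rest and 90% for hepatocyte markers, beside 19.4% over all symbols. Counts with a score above 20 within 10 kb or in the gene body were 0 for macrophage, 5 for stellate cell and 4 for endothelial genes. For cholangiocyte, lymphocyte and erythroid genes they were 2, 3 and 2, beside 12349 of 22225 symbols. Chromatin of whole liver does not separate the cell types, so less signal per cell and fewer cells of a type cannot be told apart.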

How the data were processed

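After base calling with CASAVA 1.4, the authors mapped the reads with Bowtie and kept uniquely mapped ones. MACS gave the peaks and Peak Analyzer their annotation. For RARα the authors deposited a list with the position, summit, peak score and false discovery rate in percent of each peak, called on 1 library. The score threshold of 20 and the distance of 10 kb follow the study's methods, where the threshold is a fold of input, but the deposited list does not define the score. The study's text states the number of mapped reads, but the list gives no reads per peak, so no error of a score was computed. The strand column was not used, since it equalled the strand of the nearest gene in 94.8% of the peaks within 1 kb of a TSS. The RXRα and input signals were not used here.

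The methods name mm10 for alignment and mm9 for annotation, and the submitters' processing notes name mm9. With 0 peaks beyond a chromosome end of NCBI37/mm9, that genome and the 22367 protein-coding genes of GENCODE M1 were used. Summits were assigned to gene parts and to the nearest TSS. Ties between parts were resolved in a fixed order. Motifs were searched in windows reaching 100 bp to either side, on peaks, on all TSS and every 2 kb of the genome. Shares carry 95% Wilson intervals, and no p-values were computed. The assignment to gene parts and the distance to the nearest TSS were tested on simulated data, and the other steps were not.

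The text names the 3 highest peaks of each gene part, the 12 genes with the highest summed scores and with the most peaks within 10 kb, the 5 genes with the most peaks in the body, the 4 leading members of each of 29 lists, members without a peak where these were 5 or fewer, Cyp26a1, the RAR genes and the leading runs. A few genes that this rule names are not reported here. Other markers with a peak, Malat1, Neat1, AY036118, Scp2 and the genes tied at 17 peaks were named after their values were seen. Peaks, lists and motifs were chosen with earlier results of these data known. Computations used Python 3.11.15, numpy 2.4.6, pandas 2.3.3, scipy 1.17.1 and matplotlib 3.10.9.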

Additional observations from a re-analysis of the deposited data

How the results depend on the processing

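No paired analysis was possible because there is 1 RARα library, and no replicate could be left out. The gene end window moved the 3′ end share most, and the score threshold the other values. With scores above 10, 30 and 50 there were 80329, 18568 and 7411 peaks, the 5′ end share was 22.2%, 42.6% and 54.0%, the 3′ end share 4.65%, 2.80% and 2.75%, and the density on chromosome X 0.188, 0.126 and 0.0801 of the autosomes. The intergenic share was 26.3% above 30 and 22.7% above 50, and 4314 genes had a peak within 10 kb above 50. Joining peaks at most 10 bp apart gave shares of 31.6% (5′ end), 31.1% (intergenic) and 3.06% (3′ end), and a ratio of 0.176 for chromosome X. With gene ends of 500 bp the 3 shares were 29.3%, 30.1% and 2.06%, with 2 kb 38.3%, 25.1% and 5.65%, and with genes of all biotypes 36.0%, 25% and 3.88%. All transcript starts gave a 5′ end share of 38.1%. Peak midpoints in place of summits moved none of the 3 shares beyond their intervals. The number of genes with a peak stayed within 1.5 times the main count with scores above 10 (12979) and 30 (7907), with joined peaks (9974), with all transcript starts (10597), within 5 kb (9468), within 1 kb (8427) and over gene bodies (11581). The shares of 10 of 29 lists left their interval with scores above 10, of 21 with scores above 50 and of 5 within 1 kb, while all 19 function lists lay above the share of all symbols under each of the 3 settings (58.3%, 19.4% and 37.9%). Without a replicate or reads per peak, the error of a score near 20 is not known.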
